A study of Mus musculus with 10 samples.

Results

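The 33 genes described here carry out the synthesis, folding and export of secreted protein, together with genes that mark the plasma cell, the antibody-secreting end stage of the B lineage. They were chosen by symbol, with earlier results of these data known. All 33 were present among the 31053 genes of each of the 5 RNA matrices. The cells came from spleen of the BXD2 strain, recombinant inbred mice with spontaneous germinal centers (GCs) and autoantibodies. The groups were 3 BXD2-p19-/- mice (1 and 2 female, 3 male), which lack p19, a subunit of IL-23, and 2 female BXD2-WT mice, each with 1 RNA library and 1 B cell receptor V(D)J library from the 10x 5' kit. The labels name no treatment, age or capture day, and the series design speaks of GC B cells while the sample labels speak of B and T cells. The p19 transcript, Il23a, had 0 UMIs in all 5 libraries, those of WT mice included, so that its loss could not be checked in RNA.

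In a plasma cell nearly all secreted protein is antibody, which enters the endoplasmic reticulum (ER) through the Sec61 channel, loses its signal peptide, is folded by chaperones and disulphide isomerases, and is either passed to the Golgi or returned to the cytosol for degradation. Load on this system is read by the unfolded protein sensors IRE1, ATF6 and PERK. IRE1 splices the Xbp1 transcript, ATF6 and XBP1 drive chaperone and degradation genes, and PERK acts through ATF4 and CHOP, the product of Ddit3. Blimp-1, encoded by Prdm1, starts the plasma cell programme and represses genes of B cell and GC identity.

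The 5 RNA libraries held 7712457 to 18093053 UMIs, and 944 to 2310 cells a mouse in the p19-/- group and 2729 and 1670 cells in the WT group passed the filters, 9200 in all. The library of p19-/- 1 lost 36.0% of its barcodes to the limit on mitochondrial UMIs, against 9.17% to 13.2% in the other 4. Pairs of libraries shared 3 to 11 barcodes, at most 0.562% of the smaller library. Clusters were made without the 33 genes and without immunoglobulin genes, and were named from marker lists. They gave 125 plasma cell-like cells, 2939 GC B-like cells, 604 cells of mature B cells outside the GC (non-GC B-like below), 3615 CD4 T-like cells and 206 CD8 T-like cells. The plasma cell-like cluster was led by Edem2, Ly6c2 and Fam46c among others, and by the immediate early genes Fos and Jun. It held 12, 11 and 32 cells in p19-/- 1 to 3 and 36 and 34 cells in WT 1 and 2. Immunoglobulin made up 58.3% of its UMIs, against 1.47% in GC B-like cells and 0.323% in CD4 T-like cells, and 64.0% of its cells had at least 100 heavy-chain contig UMIs in the matched V(D)J library.

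All 33 genes had their highest mean in the plasma cell-like class among the plasma cell-like, GC B-like, non-GC B-like and CD4 T-like classes. Together they took 20.3% of the non-immunoglobulin UMIs there, with 13.4%, 14.5% and 20.04% in p19-/- 1 to 3 and 22.9% and 20.5% in WT 1 and 2. The share was 0.734% in GC B-like, 0.625% in non-GC B-like, 0.436% in CD4 T-like and 0.329% in CD8 T-like cells. Over GC B-like cells the median fold of the 33 genes was 17.9. It ranged from 1.31 for Atf4 to 349 for Prg2, and 20 genes were over 10-fold. For 31 of 33 genes every plasma cell-like value lay above every GC B-like value, the exceptions being Canx and Atf4. The median folds over non-GC B-like, CD4 T-like and CD8 T-like cells were 16.4, 21.9 and 21.7. These are descriptions of clusters, with no test. The same counts were not taken over all genes, so they do not set the 33 apart from other genes. Levels below are UMI counts per 1000000 (CPM) with immunoglobulin left out of the total, given as mean ± SD over 5 mice where so written, and are compared within a gene only, since 5' UMI counts carry no length correction.

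**Figure D1:**
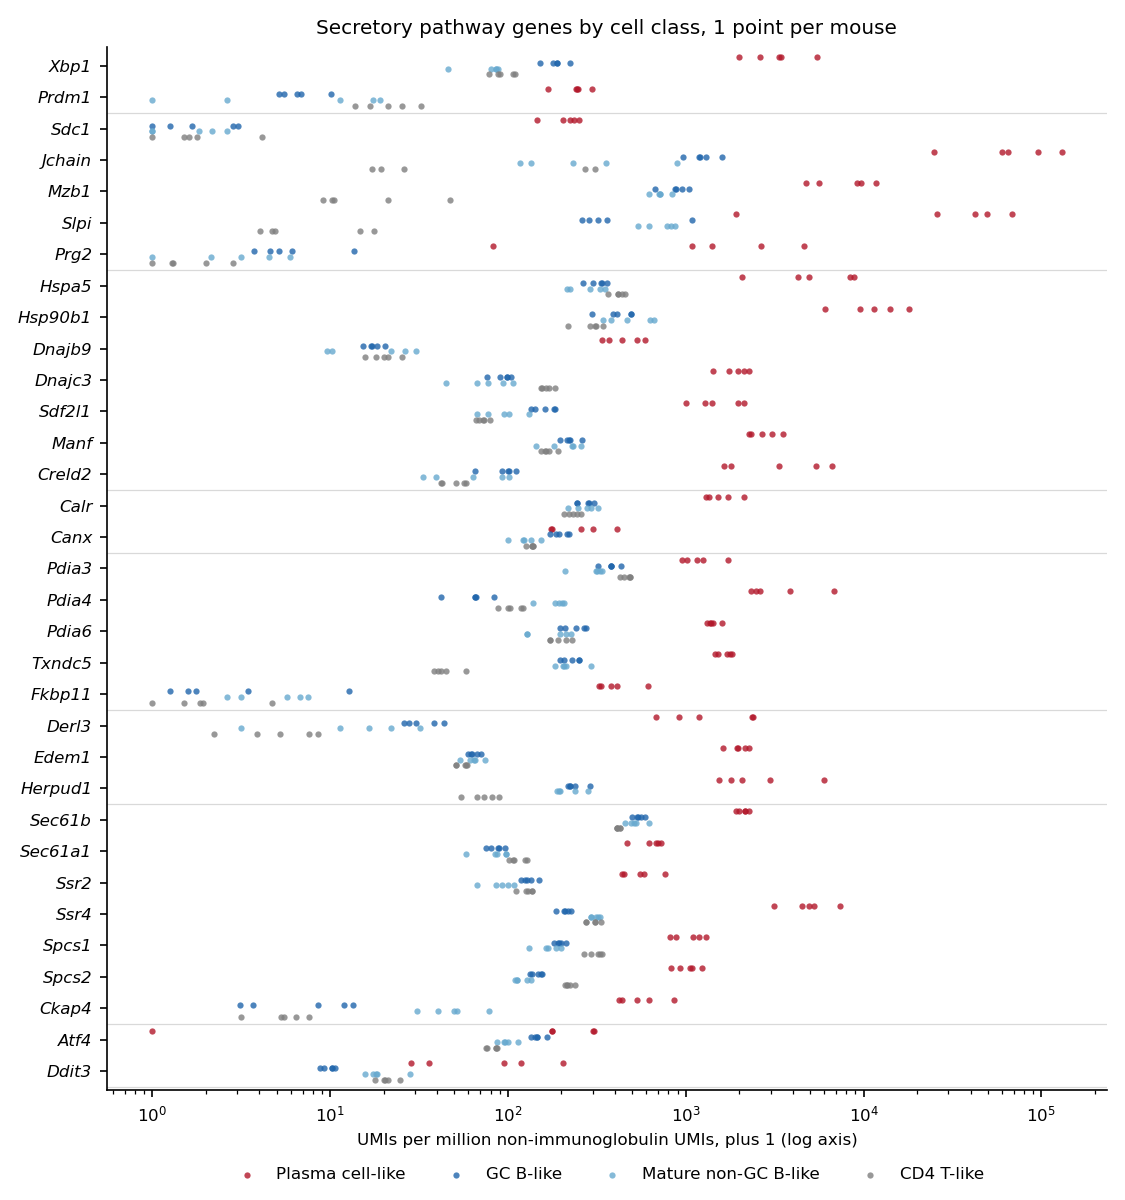
Level of each of the 33 genes (rows, grouped by role) in CPM without immunoglobulin, plus 1, on a log axis, with 1 point per mouse in plasma cell-like, GC B-like, non-GC B-like and CD4 T-like cells. The plasma cell-like points lie to the right of the GC B-like points for every gene but Canx and Atf4.

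Of the regulators, Xbp1 reached 5462, 2622 and 1986 in plasma cell-like cells of p19-/- 1 to 3 and 3445 and 3324 in WT 1 and 2. In GC B-like cells it stood at 187, 188, 179, 151 and 221 in the same order, an 18.2-fold lower mean. Its level in GC B-like cells was still above that in non-GC B-like cells (76.0 ± 17.6) in 5 of 5 mice. UMI counts from the 5' end do not separate spliced from unspliced Xbp1. Prdm1 averaged 238 ± 46.0 in plasma cell-like, 5.85 ± 1.98 in GC B-like, 9.30 ± 8.29 in non-GC B-like and 20.9 ± 7.26 in CD4 T-like cells, so that its lowest mean was in the GC class. The non-GC B-like mean rests on 1, 0 and 22 UMIs in p19-/- 1 to 3 and 9 and 14 in WT 1 and 2. The order of the 2 B cell means thus did not hold in every mouse.

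The surface and secreted products included the widest margins of all, those of Prg2 (349-fold) and Sdc1 (221-fold). Jchain, which joins IgM and IgA into polymers, averaged 75178 ± 39571 in plasma cell-like cells and 1250 ± 233 in GC B-like cells. In CD4 T-like cells Jchain stood at 16.3, 271 and 18.4 in p19-/- 1 to 3 and at 25.2 and 308 in WT 1 and 2. The libraries with the higher values, p19-/- 2 and WT 2, also had the highest immunoglobulin share in those T cells, 0.311% and 0.725% against 0.128% to 0.221% in the other 3. The part of free plasma cell RNA in low levels of these transcripts was not tested. Sdc1, the syndecan CD138 used to sort plasma cells, averaged 211 ± 40.4 in plasma cell-like cells and 0.956 ± 0.921 in GC B-like cells. Slpi, a secreted protease inhibitor, reached 25893 to 67959 in 4 mice but 1916 in p19-/- 1, whose 12 plasma cell-like cells were also the shallowest, with a median of 2062 UMIs against 3543 to 7961 in the other mice. Prg2, the eosinophil major basic protein, was likewise lowest in p19-/- 1, at 81.5 against 1090 to 4627 elsewhere. Mzb1, an ER co-chaperone of antibody assembly, was already present in GC B-like cells (886 ± 140) and non-GC B-like cells (720 ± 75.3), stood at 8197 ± 2924 in the plasma class and at 18.6 ± 16.2 in CD4 T-like cells.

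Among the chaperones, Hspa5, which encodes BiP, stood at 8438, 8867 and 4923 in plasma cell-like cells of p19-/- 1 to 3 and at 2082 and 4270 in WT 1 and 2. Its GC B-like values were 338, 360, 301, 263 and 333. Hsp90b1, which encodes GRP94, averaged 11826 ± 4543 against 416 ± 82.5, a 28.5-fold difference, and Creld2, an ER factor of protein folding, differed 40.6-fold. The co-chaperones Dnajb9 and Dnajc3, with Sdf2l1 and Manf, differed by 27.2-fold, 20.5-fold, 9.71-fold and 12.4-fold. The lectin chaperones behaved less alike. Calr, calreticulin, averaged 1604 ± 336 against 272 ± 26.5. Canx, its membrane-bound relative calnexin, averaged 263 ± 97.3 against 197 ± 20.4, with overlapping groups, and its mean in macrophage-like or monocyte-like cells (388 ± 66.9) was higher than in any B cell class.

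The folding enzymes spanned a wide range of folds over GC B-like cells. The disulphide isomerase Pdia4 differed 57.1-fold, Txndc5 7.36-fold, Pdia6 5.98-fold and Pdia3 3.24-fold, and the prolyl isomerase Fkbp11 differed 129-fold from a GC B-like level of 3.18 ± 4.89. Of the degradation genes, Derl3 (1508 ± 812 against 32.3 ± 7.49) and Edem1 (1991 ± 250 against 63.5 ± 4.07) differed more than Herpud1 (2876 ± 1822 against 237 ± 29.5). The folds of the translocation genes were mostly small. Sec61b, a subunit of the channel, was at 2099 ± 144 against 542 ± 32.5, and Ssr2, Spcs1, Spcs2 and Sec61a1 differed by 4.29-fold to 7.52-fold. The exception was Ssr4, a subunit of the translocon-associated complex (24.3-fold). Ckap4, a protein of ER sheets that was grouped with the translocation genes here, differed 79.7-fold. Atf4, a stress factor, had the smallest fold of the 33. It stood at 0, 177 and 300 in p19-/- 1 to 3 and at 304 and 175 in WT 1 and 2, around its GC B-like mean of 146 ± 11.9, while Ddit3 averaged 95.7 ± 71.6 against 8.83 ± 0.787, a 10.8-fold difference.

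GC B-like and non-GC B-like cells differed little in these genes, with 26 of 33 means within 2-fold. In 5 of 5 mice 10 genes were higher in GC B-like cells, among them Xbp1 (2.44-fold), Jchain (3.63-fold), Sdf2l1 (1.71-fold) and Canx (1.57-fold). In 5 of 5 mice 4 were lower, namely Ckap4 (7.18 ± 4.72 against 49.3 ± 17.8), Pdia4 (63.4 ± 14.6 against 184 ± 27.8), Ssr4 and Ddit3. Neither count was made over all genes. With each cell thinned to 3000 UMIs, leaving out 41 of 125 plasma cell-like, 214 of 2939 GC B-like, 168 of 604 non-GC B-like and 1301 of 3615 CD4 T-like cells, a median of 20 of the 33 genes was detected in a plasma cell-like cell, 10 in a GC B-like cell and 8 in a non-GC B-like or CD4 T-like cell.

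Several of the promoters, mostly of chaperone genes, held the sequence for which this response is known. The ER stress response element (ERSE) is CCAAT, 9 further bases and CCACG, and is bound by NF-Y together with ATF6 or XBP1. Windows from 250 bases before to 50 after the RefSeq start (build GRCm38.p6) were used for 28 of the 33 genes, all but Sec61a1, Manf, Ssr2, Prg2 and Mzb1. On either strand the ERSE was found in 8 of the 28 (28.6%), and in 39 of all 32851 windows of that length (0.119%). The related ERSE-II, ATTGG, 1 base and CCACG, was in Herpud1 alone of the 28, and in 12 windows in all (0.0365%). The short pieces are common, CCACG in 22 of the 28 (78.6%) and 32.8% of all windows, CCAAT in 20 (71.4%) and 37.4%. The stretches below are printed in the direction of transcription with the fixed bases of the element in capitals, which read CGTGG and ATTGG where the element lies on the other strand. Hspa5, the best known target, and Hsp90b1, which holds 2 copies, are shown over the whole 250 bases before the start, and the others as the element with 15 bases on each side. They are sequences of the reference strain, not of BXD2.
Hspa5 (chr2:34771840-34772089, plus strand): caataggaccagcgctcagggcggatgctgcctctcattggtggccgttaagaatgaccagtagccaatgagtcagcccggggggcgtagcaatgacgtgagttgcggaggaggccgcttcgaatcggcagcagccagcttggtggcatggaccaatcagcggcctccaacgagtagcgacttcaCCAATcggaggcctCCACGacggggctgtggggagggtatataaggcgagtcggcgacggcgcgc
Hsp90b1 (chr10:86705445-86705694, minus strand): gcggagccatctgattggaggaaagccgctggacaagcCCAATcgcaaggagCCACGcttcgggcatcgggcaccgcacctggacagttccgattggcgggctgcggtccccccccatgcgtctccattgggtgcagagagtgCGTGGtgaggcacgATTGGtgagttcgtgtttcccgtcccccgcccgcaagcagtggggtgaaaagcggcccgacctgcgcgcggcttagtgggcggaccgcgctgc
Creld2 (chr15:88819505-88819553, plus strand): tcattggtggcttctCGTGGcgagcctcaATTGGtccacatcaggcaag
Pdia6 (chr12:17266476-17266524, plus strand): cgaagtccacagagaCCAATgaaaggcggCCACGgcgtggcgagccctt
Dnajc3 (chr14:118937812-118937860, plus strand): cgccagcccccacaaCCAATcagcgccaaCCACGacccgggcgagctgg
Calr (chr8:84847060-84847108, minus strand): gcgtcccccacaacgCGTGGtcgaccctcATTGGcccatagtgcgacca
Canx (chr11:50325785-50325833, minus strand): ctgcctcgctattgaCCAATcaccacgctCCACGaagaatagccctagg
Derl3 (chr10:75893227-75893275, plus strand): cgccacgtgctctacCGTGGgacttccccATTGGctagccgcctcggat
Herpud1 (chr8:94386362-94386402, plus strand): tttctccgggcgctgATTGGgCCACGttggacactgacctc
A match is a description of letters and not a site of binding in these cells.

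Whether the programme followed antibody production was asked with the V(D)J libraries, whose heavy-chain contig UMIs give a measure that was not taken from the gene counts, although both libraries start from the same amplified cDNA. Cells with at least 100 productive heavy-chain contig UMIs (12, 15 and 53 cells in p19-/- 1 to 3, and 52 and 67 in WT 1 and 2) were compared with those that had 1 to 19 (436, 177, 662, 719 and 241 cells), with mouse as a block. All 33 genes were higher with many contig UMIs at an adjusted p under 0.05 (edgeR), and each was higher in 5 of 5 mice. Among them Prg2, Fkbp11 and Sdc1 were close to absent from the cells with 1 to 19, so that only a rise could be seen. Of all 9103 genes tested, 11.3% were higher and 7.94% lower. The median log2 fold change of the 33 genes was 3.12, against -0.02 over all genes. By cluster, the cells with 100 to under 1000 contig UMIs were 37 plasma cell-like, 55 GC B-like, 6 T cell-like and 27 unnamed of 131. Those with 1000 or more were 43 plasma cell-like, 9 GC B-like and 15 unnamed of 68. The cells with 1 to 19 were 1396 GC B-like, 398 non-GC B-like, 73 T cell-like and 347 unnamed of 2235, and in p19-/- 1 41 T cell-like and 228 unnamed of 436. With only the 3 B lineage classes, which left out p19-/- 1 for its 8 high cells, 32 of 33 genes were higher, against 9.56% of all genes, with a median of 3.09. Ddit3 no longer passed there (0.92, adjusted p = 0.0655).

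Values in this paragraph are TMM-normalised CPM over all UMIs, immunoglobulin included. Xbp1 stood at 1416, 614, 864, 1484 and 1246 in the high cells of p19-/- 1 to 3 and WT 1 and 2, against 103, 102, 114, 105 and 105 in the low cells, a log2 fold change of 3.34 ± 0.23 (SE, adjusted p = 3.88e-05). Low cells hardly differed between mice, and the 2 sets did not overlap. Hsp90b1 was at 4360, 2906, 4917, 3392 and 4878 against 215 to 342 (3.97 ± 0.19). Creld2 differed by 4.36 ± 0.15, Derl3 by 4.48 ± 0.21, Pdia4 by 4.16 ± 0.29 and Hspa5 by 3.00 ± 0.17. The largest changes were those of Prg2 (7.21 ± 0.51), Fkbp11 (6.60 ± 0.51) and Sdc1 (6.18 ± 0.39), which were close to absent from low cells. The translocation genes and Ckap4, the ER sheet protein grouped with them, ranged from 1.61 for Sec61b to 4.25 for Ckap4, with a median of 2.21. At the low end were Canx (0.97 ± 0.13), Ddit3 (1.146 ± 0.22) and Atf4 (0.48 ± 0.12, adjusted p = 0.0252). Slpi was at 446 in the high cells of p19-/- 1 and at 3429 to 15878 in those of the other mice, against 190 to 340 in low cells (4.63 ± 0.77). The 8 genes with an ERSE ranged from 0.97 (Canx) to 4.48 (Derl3) with a median of 3.07, and the other 25 from 0.48 to 7.21 with a median of 3.12. The other 25 are not all genes without an element. They include Sec61a1, Manf, Ssr2, Mzb1 and Prg2 (the 7.21), which had no window to search, and Herpud1 with its ERSE-II.

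**Figure D2:**
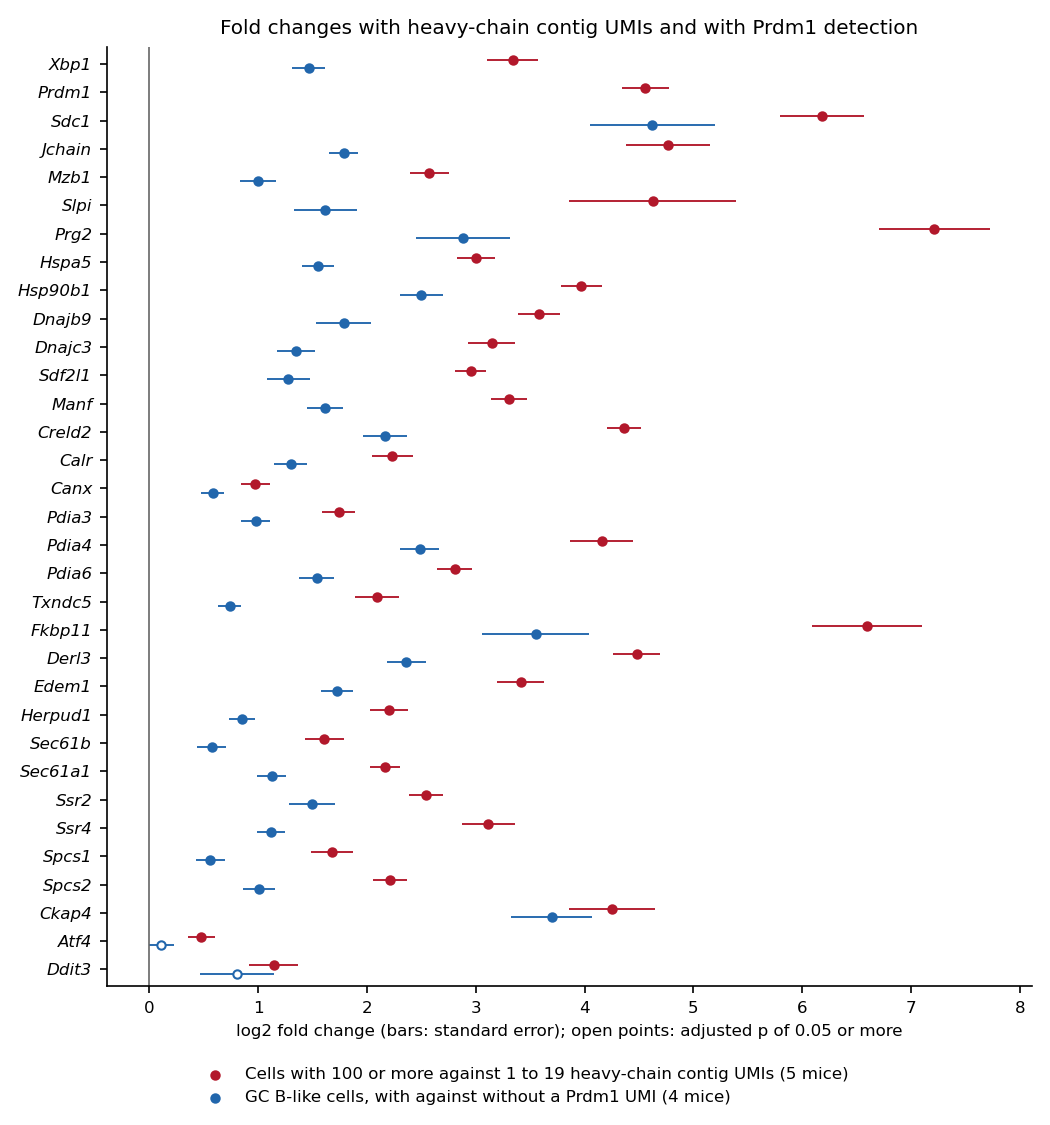
Log2 fold change with its standard error for each of the 33 genes (rows) in 2 comparisons, cells with at least 100 against 1 to 19 heavy-chain contig UMIs in 5 mice (red) and GC B-like cells with against without a Prdm1 UMI in 4 mice (blue). Every red point is past the threshold, and the open blue points of Atf4 and Ddit3 are not; Prdm1 has no blue point because it defined that split.

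Genes of the rest of the pathway, from lists that hold none of the 33, mostly moved the same way. All 23 tested genes of ER to Golgi transport were higher, such as the cargo receptor Lman1 (2.78 ± 0.13) and Arfgap3 (3.57 ± 0.18). So were 17 of 18 of translocation and signal peptide removal (Tram2 3.17, Ssr3 2.06), 16 of 17 other ER folding genes (Hyou1 2.61), 15 of 17 of ER-associated degradation (Sel1l 2.45, Edem2 3.39) and 13 of 16 of N-glycosylation (Ddost 2.56, Rpn1 2.20). Of 7 sensor genes 4 were higher, namely Creb3l2 (5.18 ± 0.27), Ern1, which encodes IRE1 (4.52 ± 0.34), Atf6 (1.90 ± 0.20) and Atf6b (0.84 ± 0.16). Of 15 ATF4 targets 9 were higher, led by the amino acid transporter subunit Slc3a2 (2.61 ± 0.18) and by asparagine synthetase, Asns (1.75 ± 0.13). Of 14 other plasma cell genes 11 were higher, among them Tnfrsf17, the receptor BCMA (6.49 ± 0.56), and Irf4 (3.33 ± 0.24). Among 20 genes of B cell and GC identity 14 were lower, including Ebf1 (-1.70) and Bach2 (-1.91). Of 15 cell cycle genes 3 were higher and 3 lower. Of 6 tested T cell transcripts 0 passed, and of 2 tested myeloid transcripts Fcer1g did (3.19 ± 0.85).

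The rise was not even across contig UMIs. The 33 genes together took 0.485% of non-immunoglobulin UMIs in cells with 1 to 4 contig UMIs, 0.589% with 5 to 19, 0.722% with 20 to 99, 3.67% with 100 to under 1000 and 17.5% with 1000 or more. Against cells with 5 to 19, the median fold of the 33 genes was 1.201, 5.36 and 19.1 in the last 3 of these bins. There 22, 31 and 30 of the 33 were higher in 5 of 5 mice, a count not made over all genes. Median depth also differed, at 4367, 7939, 15568, 13512 and 19214 UMIs a cell over the 5 bins. Within the GC B-like class, cells with 20 to 99 contig UMIs against those with 1 to 19 had 18 of 31 tested genes higher, where 4.76% of all genes were, but by little, with a median log2 fold change of 0.29. Xbp1 differed there by 0.48 (adjusted p = 0.0034), Hsp90b1 by 0.58 and Derl3 by 0.85, while Atf4 (-0.07), Ddit3 (-0.55) and Edem1 (-0.04) were not called. With the plasma cell-like cluster and the unnamed cluster beside it left out, which left 3 mice with enough cells, 31 of 33 genes were higher (5.34% of all genes) with a median of 2.14.

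**Figure D3:**
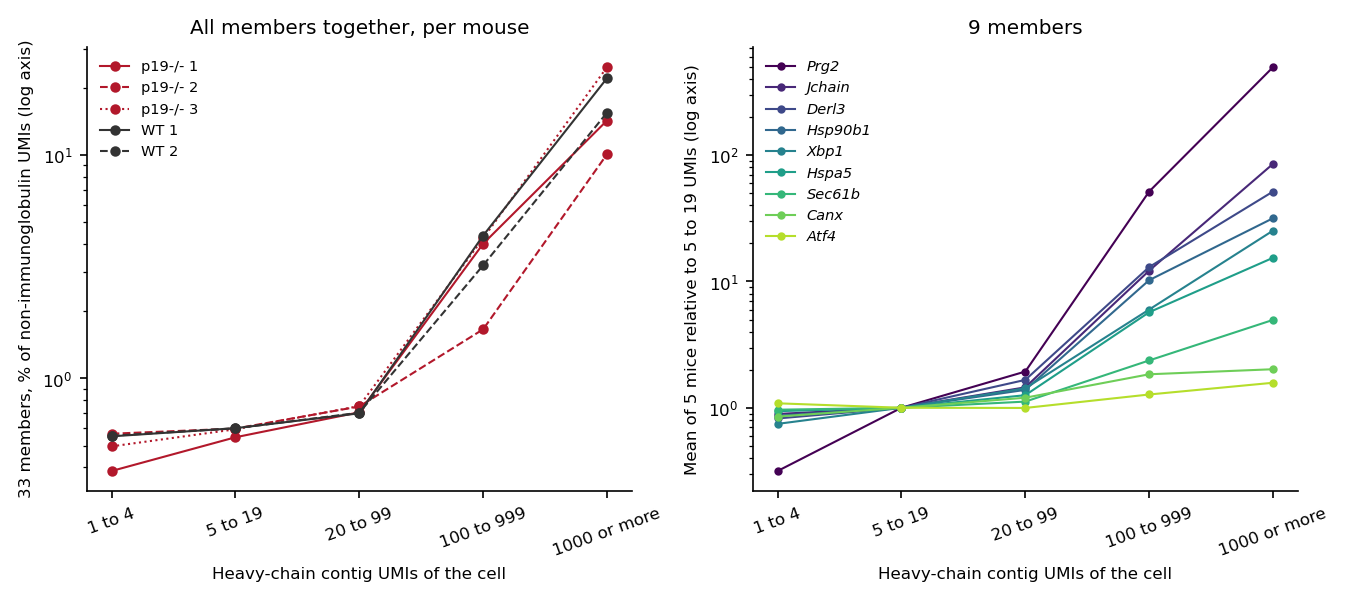
Left, share of non-immunoglobulin UMIs taken by the 33 genes (log axis) by heavy-chain contig UMIs of the cell, 1 line per mouse. Right, mean level over 5 mice of 9 of the genes relative to cells with 5 to 19 contig UMIs (log axis); all 9 lines stay under 2 up to 99 contig UMIs and spread above that, from Atf4 at 1.58 to Prg2 at 498 in the top bin.

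The onset of the programme was looked for in GC B-like cells with a Prdm1 UMI. These were 112 of 2939 (3.81%, 95% exact binomial interval 3.15 to 4.57, counting error only). A Prdm1 UMI was also found in classes outside the plasma lineage, in 3.15% of non-GC B-like cells (median depth 5173 UMIs against 10318 in GC B-like cells) and in 6.31% of CD4 T-like cells (3572 UMIs). Thinned to 3000 UMIs, the shares were 1.39%, 2.06% and 4.54%, and 22.6% in plasma cell-like cells. With cells pooled over mice, the share in GC B-like cells at equal depth was thus not above that of the other B cells. The order was not the same in every mouse. In p19-/- 2 the non-GC B-like cells had 0 Prdm1 UMIs, while 1.27% of thinned GC B-like cells had a Prdm1 UMI. Of the 112 cells, 50 had at least 2 Prdm1 UMIs. Cells with and without a Prdm1 UMI were added up within each mouse, and the sums were tested with the mouse as a block. p19-/- 1 had 7 such cells, below the minimum of 10, so that 4 mice entered, with 12 and 35 cells in p19-/- 2 and 3 and 25 and 33 in WT 1 and 2.

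Of the 32 genes other than Prdm1, 30 were higher in the cells with a Prdm1 UMI and none was lower (edgeR, adjusted p under 0.05), where 3.59% of 9257 genes were higher and 1.93% lower. The median log2 fold change was 1.48, against -0.02 over all genes. In TMM-normalised CPM, Xbp1 was at 526 and 448 in p19-/- 2 and 3 and at 267 and 588 in WT 1 and 2, against 155, 161, 145 and 180 in cells without (1.47 ± 0.15, adjusted p = 0.000538). Hsp90b1 was at 1565, 2920, 879 and 2274 against 307, 356, 271 and 306 (2.50 ± 0.20). For both genes WT 1 had the smallest rise, and cells with and without did not overlap. Hspa5 rose by 1.55 ± 0.15, Creld2 by 2.17 ± 0.20, Pdia4 by 2.48 ± 0.18 and Derl3 by 2.36 ± 0.18. The plasma cell gene Jchain (1.79 ± 0.13) and Ckap4 (3.70 ± 0.37) rose in 4 of 4 mice. Sdc1 (4.62 ± 0.57) rests on 1, 9, 3 and 14 UMIs in cells with and 0, 11, 4 and 3 UMIs in cells without. Fkbp11 (3.55 ± 0.49) likewise rests on 0, 16, 3 and 40 against 1, 11, 5 and 59 UMIs. In the group of translocation genes and Ckap4, the rise went from 0.56 (Spcs1, adjusted p = 0.0377) to the 3.70 of Ckap4, with Sec61b at 0.58. Atf4 (0.11 ± 0.11, adjusted p = 0.686) and Ddit3 (0.81 ± 0.34, adjusted p = 0.235) did not pass.

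Other genes of the pathway passed less completely than the 33. Higher were 10 of 23 genes of ER to Golgi transport (Lman1 1.63), 9 of 18 of translocation (Ssr3 1.24), 9 of 16 of N-glycosylation (Ddost 1.29), 8 of 17 of other ER folding (Hyou1 1.57) and 7 of 17 of degradation (Edem2 1.61). The sensors Creb3l2 (4.47 ± 0.54), Ern1 (2.61 ± 0.65) and Atf6 (1.202 ± 0.20) were higher, and of 15 ATF4 targets only Asns was (1.04 ± 0.25). Of 11 other plasma cell genes 8 were higher, among them the transcription factor Irf4 (2.98 ± 0.29) and the elongation factor Ell2 (1.48 ± 0.16). Of 20 B cell and GC identity genes 5 were lower, including Pax5 (-1.28 ± 0.14), Ebf1 (-0.81) and Bach2 (-0.78), and H2-Ab1 was higher (0.54 ± 0.08). Neither of 2 tested T cell transcripts passed, and the myeloid transcript Fcer1g was higher (3.60 ± 0.83). Over all mice, 15.2% of cells with a Prdm1 UMI and 7.85% of those without had a T cell UMI. T cell transcripts stood at 16.5 and 13.1 CPM in the same order. The share was higher with a Prdm1 UMI in p19-/- 3 (22.9% against 8.72%) and WT 2 (18.2% against 8.82%). It was not higher in p19-/- 2 (8.33% against 8.75%) or WT 1 (4% against 5.90%).

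Depth and antibody load differed together with Prdm1 detection. The cells with a Prdm1 UMI had a median of 15887 UMIs against 10182, and 24.1% of them had at least 100 heavy-chain contig UMIs against 1.31%. They also lay in other GC clusters, with 15.2% against 32.2% in cluster 2, 42.0% against 32.7% in cluster 1 and 33.04% against 21.2% in cluster 6, led by Cdc20 and Ccnb1 among others. Of 15 cell cycle genes Ccnb1 was higher (0.50 ± 0.12) and Pcna lower (-0.56 ± 0.14). The part of cluster or cycle in the result was not tested. Without the cells of 100 or more heavy-chain contig UMIs, 3 mice had enough cells left. In these, 9 of 30 tested genes were higher, where 0.865% of all genes were, and the median of the 30 was 0.51. Those 9 were Pdia4 (1.34), Hsp90b1 (1.23), Derl3 (1.14), Jchain (0.82), Pdia6 (0.78), Hspa5 (0.76), Edem1 (0.75), Calr (0.74) and Xbp1 (0.54). When the 33 genes were clustered too, 26 of the 112 cells with a Prdm1 UMI were plasma cell-like, against 10 of 2827 without. Keeping only cells that stayed GC B-like in that clustering gave 10 of 31, against 0.846% of all genes. After thinning, 9 of 29 tested genes passed in the 2 mice with enough cells, against 0.766% of all genes. Leaving out WT 2 left 25 of 32, and Slpi, Prg2, Canx, Sec61b and Spcs1 no longer passed.

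The difference between cells with and without a Prdm1 UMI was not shown to depend on genotype. In the interaction of Prdm1 status and genotype 0 of 32 genes passed in edgeR, as did 0.0756% of all genes, and 273 genes of 9257 had an unadjusted p under 0.05. The share of GC B-like cells with a Prdm1 UMI was 3.38%, 4.76% and 3.86% in p19-/- 1 to 3 and 2.33% and 6.63% in WT 1 and 2. The means, 4.001% ± 0.70 and 4.48% ± 3.04 (SD, n = 3 and 2), differed by less than the spread of the WT mice (two-sided exact permutation p = 0.8). The plasma cell-like share of filtered cells was 0.776%, 1.17% and 1.39% against 1.32% and 2.04% (exact permutation p = 0.3). With 3 against 2 mice the smallest possible p is 0.2.

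Between genotypes no gene of the 33 passed in any of the 4 classes tested (edgeR, adjusted p under 0.05). Values by genotype are TMM-normalised CPM over all UMIs, immunoglobulin included, and so differ from the class levels above. In GC B-like cells all 33 were tested and 0.0188% of 10636 genes passed, namely Stab2 (-10.71) and Ulbp1 (1.70), with 837 genes at an unadjusted p under 0.05. In non-GC B-like cells 30 were tested and 0.0989% of genes passed. In plasma cell-like cells 33 were tested and 0.0589% passed, the lone gene being Ighv1-81, and in CD4 T-like cells 30 were tested and 0.473% passed. Of the other pathway lists the lone gene past the threshold was Selenom, an ER selenoprotein, in CD4 T-like cells (-1.41 ± 0.24, adjusted p = 0.047). In GC B-like cells Slpi was at 257, 276 and 317 in p19-/- 1 to 3 and at 360 and 1068 in WT 1 and 2 (-1.33 ± 0.38, adjusted p = 0.585). WT 2 stood apart there, and the groups did not overlap. Without WT 1 the Slpi difference passed at -1.92, resting on WT 2 alone. Jchain was at 944, 1147 and 1190 against 1307 and 1585 (-0.40 ± 0.12, adjusted p = 0.595). Of the 33 genes 7 did not overlap between genotypes in GC B-like cells (21.2%), against 25.4% over all genes. They were Dnajc3 and Canx, higher in p19-/-, and Slpi, Jchain, Mzb1, Ssr4 and Spcs1, lower. In non-GC B-like cells 2 of 30 did not overlap (6.67%, against 21.3% of all genes), Ckap4 and Ssr4, both lower in p19-/-.

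Plasma cell-like cells showed more separation, on 12, 11 and 32 cells against 36 and 34. The values were without overlap for 14 of the 33 genes (42.4%), 10 higher and 4 lower in p19-/-, where 22.9% of all genes tested had no overlap, 9.77% higher and 13.1% lower. None passed the adjusted threshold. The direction depended on how the cells were clustered. With the 33 genes kept among the clustering genes, which gave 13, 12 and 65 plasma cell-like cells against 40 and 59, 2 genes were higher and 9 lower without overlap (33.3%, against 22.1% of all genes). The median log2 fold change of the 33 genes was then -0.26, where it was 0.18 before. Of the 10 genes on the high side only Creld2 was still without overlap on that side, and Sdf2l1 was then without overlap on the low side. The values that follow are those of the first clustering. Ddit3 was at 104, 57.2 and 51.1 in p19-/- 1 to 3 and at 15.5 and 18.2 in WT 1 and 2 (1.81 ± 0.51, adjusted p = 0.509), which rests on 5, 4 and 11 UMIs against 4 and 6. Creld2 was at 2756, 3247 and 1822 against 924 and 936 (1.49 ± 0.60, adjusted p = 0.625; DESeq2 gave 0.00935). Derl3 was at 1211, 1159 and 646 against 516 and 351 (1.20 ± 0.43), Hspa5 at 4322, 4306 and 2672 against 1169 and 2214 (1.154 ± 0.74), and Herpud1 at 1065, 2904 and 1626 against 858 and 930 (1.06 ± 0.60). All 3 were higher in every p19-/- mouse without passing. The other 5 without overlap on the high side were Sdf2l1, Sec61a1, Hsp90b1, Dnajc3 and Manf, and the 4 on the low side were Jchain, Ssr4, Sdc1 and Spcs1. Xbp1 itself was at 2798, 1273 and 1078 against 1934 and 1724 (-0.09 ± 0.62) and Sec61b differed by -0.04 ± 0.41. Depth went with genotype in these cells, the median being 2062, 3543 and 4981 UMIs in p19-/- 1 to 3 and 7961 and 7546 in WT 1 and 2, and its part in these values was not tested.

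**Figure D4:**
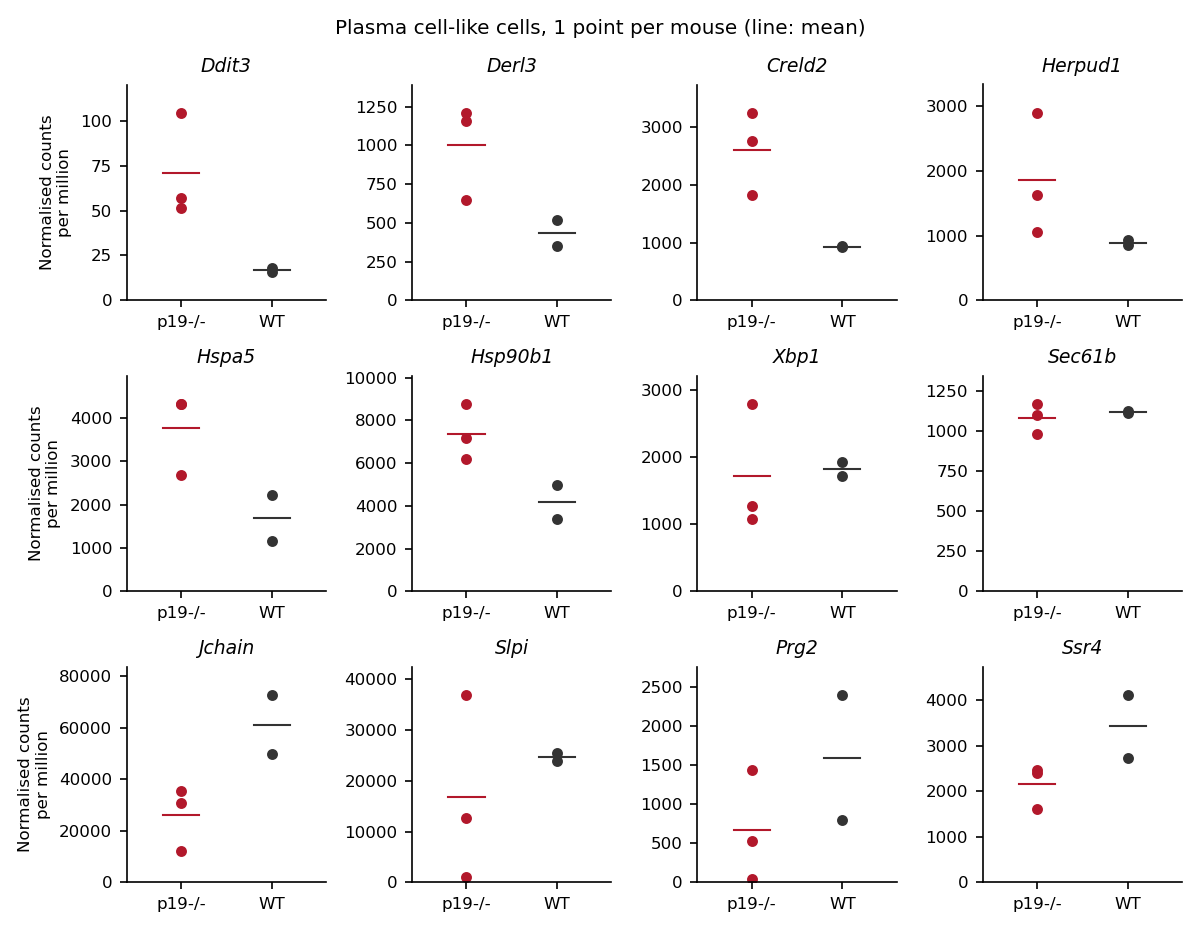
TMM-normalised CPM of 12 of the 33 genes, picked after their values were seen, in plasma cell-like cells, 1 point per mouse with the group mean as a line, on axes that start at 0. The p19-/- points lie above the WT points for Ddit3, Derl3, Creld2, Herpud1, Hspa5 and Hsp90b1, below them for Jchain and Ssr4, and overlap them for Xbp1, Sec61b, Slpi and Prg2.

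Of the 33 genes 5 lie on chromosome 10 with Il23a (chr10:128296140-128298084, GRCm38.p6), and Ddit3 (chr10:127290793-127296291) is the closest, 1.00 Mb away. The next, Hsp90b1, is 41.6 Mb away. The part of position in the values of these genes was not tested, and the labels do not give the extent of the altered interval. In GC B-like cells Ddit3 was at 9.10, 8.003 and 9.17 against 9.64 and 7.67 (0.02 ± 0.19). In CD4 T-like cells Ddit3 and Hsp90b1 were the only 2 of 30 genes without overlap (6.67%, against 26% of all genes), both higher in p19-/- and neither past the threshold.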

How the data were processed

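For each of 5 mice the authors deposited unnormalised UMI counts by gene and barcode and a V(D)J contig table with UMI counts per contig. Reads went through Cell Ranger 3.0.2 and STAR with mm10, per the submitters' processing notes. Barcodes with over 10% mitochondrial UMIs or under 200 genes were removed, and 156 of 9356 as doublets, the highest Scrublet scores at an expected rate of 0.8% per 1000 cells, since Scrublet's own threshold marked 28. Clustering used scanpy 1.11.5 and leidenalg 0.10.2 (2000 variable genes, 20 components, resolution 1, then 0.5 within clusters). A cluster was named by a marker score of at least 1, a threshold set after the data were seen, and 1095 cells stayed unnamed.

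UMI counts were summed per mouse (at least 10 cells) and tested in edgeR 4.0.16 (R 4.3.3) (quasi-likelihood F test after filterByExpr and TMM scaling, Benjamini-Hochberg adjusted over every tested gene). The standard error is the fold change over the square root of F. Nothing says that libraries of a group share more than genotype, and p-values measure the spread between mice. Every one of the 33 genes is accounted for. Other genes are named from fixed lists when past the threshold, up to 4 per direction by p. The 33 genes and the lists were chosen with earlier results of these data known. Scripts were tested on simulated data.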

Additional observations from a re-analysis of the deposited data

Results flagged for a closer look

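The 33 genes took 6.93% of non-immunoglobulin UMIs in an unnamed cluster of 158 cells that entered no comparison of cell classes, against 0.734% in GC B-like and 0.436% in CD4 T-like cells. It lay beside the plasma cell-like cluster and scored too low for that name. Per mouse the share was 6.04%, 0.438% and 5.999% in p19-/- 1 to 3 (7, 6 and 91 cells) and 7.16% and 8.24% in WT 1 and 2 (32 and 22 cells). Its median depth was 793 UMIs, immunoglobulin made up 21.5% of its UMIs, and T cell transcripts stood at 1223 CPM, against 50.9 in plasma cell-like and 7910 in CD4 T-like cells. The mixture of cell types or of ambient RNA behind these values was not tested.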

How the results depend on the processing

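Between genotypes, 0 of the 33 genes passed in GC B-like cells and 2 passed with no filter on low counts (Slpi -1.34, Jchain -0.41). Leaving out 1 mouse gave 0 to 1, the 1 being Slpi without WT 1 (-1.92). In plasma cell-like cells 1 passed with DESeq2 (Creld2) and 1 with the replicate block (Prg2, -3.06). The mouse numbers only name mice, with 2 pairs whose deviations correlated at -0.066 to 0.132 over classes. The median of the 33 there went from 0.18 to -0.26 with them kept among the clustering genes and to -0.12 with no filter, where that of all genes was -0.28. In CD4 T-like cells 2 passed with no filter (Jchain, Mzb1). With Prdm1 detection, 30 genes became 9 after thinning, where Canx was -0.21, 9 without cells of 100 or more heavy-chain contig UMIs and 10 in cells that stayed GC B-like when the 33 genes were clustered. Thinning moved the median of all genes to -0.34. The latter 2 settings, and those by cell class for contig UMIs, were chosen after seeing the data. The interaction with genotype had 0 to 3 genes when 1 mouse was left out. The difference in the share of GC B-like cells with a Prdm1 UMI ranged from -2.63 to 1.68 percentage points, positive without WT 2. With GC B-like cells of 20 to 99 contig UMIs as the high class, 18 genes passed, and Edem1 (-0.044), Ddit3 (-0.55) and Atf4 (-0.073) turned negative; the cause was not tested. The fits of plasma cell-like cells with doublets kept, and with a mitochondrial limit of 5%, had too few p19-/- mice and were not run. Counts over all genes also moved over the planned settings other than leaving out a mouse, on far larger totals than 33. By genotype they went from 2 to between 2 and 149 in GC B-like cells and from 7 to between 0 and 42 in non-GC B-like cells. They went from 1 to between 1 and 98 in plasma cell-like and from 49 to between 34 and 378 in CD4 T-like cells. The counts were 113 to 779 by Prdm1 detection, 14 for the interaction with DESeq2 and 621 to 2094 by contig UMIs. Depth limits the plasma cell-like comparison, where a mouse had 4 to 11 Ddit3 UMIs.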
